A study of Mus musculus with 2 samples.

Results

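Mature neutrophils carry a set of surface proteins and receptors that guide them through blood and into tissue, and 9 genes of this set were read in RNA-seq libraries of microglia sorted from the mouse brain. The genes were Ly6g, Cxcr2, Retnlg, Il1r2, Fpr1, Fpr2, Itgb2l, Cd177 and Trem1, taken by symbol from the 53801 genes of each deposited count file, and all 9 were found. They were chosen with earlier results of these libraries known, because neutrophil genes differ between the libraries, so their levels are described here without a test. The data were 2 libraries, each from 1 mouse of the genotype Cx3cr1(CreER/wt), which carries a tamoxifen-inducible Cre recombinase under the Cx3cr1 promoter in place of one Cx3cr1 allele and no floxed gene. The male C57BL/6 mice were 8 to 10 weeks old, had been injected with tamoxifen at 75 mg/kg per day for 4 days, and underwent sham surgery 14 days after the first injection. The titles name sham surgery while the treatment field reads none, and the study's methods give another age range and both sexes. The left hemisphere was taken 3 days after surgery, and CD11c-Ly6G-CD11b+CD45low cells were sorted. The libraries of the stroke arm were not analysed here, so both libraries belong to 1 group and no condition was compared.

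Neutrophils are made in the bone marrow, where precursors first fill their granules with proteases and antimicrobial proteins and then, as they mature, gain the receptors that respond to chemokines, bacterial peptides and cytokines. CXCR2 binds ELR-type CXC chemokines and draws neutrophils out of the marrow. FPR1 and FPR2 sense formylated peptides from bacteria and mitochondria, and FPR2 also binds annexin A1. IL1R2 is a decoy receptor that binds interleukin-1 without signalling, and TREM1 amplifies inflammatory signals through the adaptor TYROBP. Ly6G and CD177 are surface proteins held by a GPI anchor, Itgb2l encodes an integrin beta subunit-like protein related to the common beta-2 chain, and Retnlg encodes a secreted resistin-like protein of mouse neutrophils. Resident microglia are a separate lineage that seeds the brain from the yolk sac, and the gate used here was set to leave out cells with Ly6G on their surface.

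Sequences upstream of 4 of the genes are shown because they stand for both ends of the range of ratios described further on: Ly6g and Itgb2l had the largest differences between the libraries, and Cxcr2 and Trem1 were among the 3 with the smallest. Each is the 300 bases from 250 before to 50 after the annotated start in RefSeq (GRCm38.p6), written 5′ to 3′ on the strand of the gene. Capitals mark GAGGAA, the core of many sites of the ETS family that includes PU.1, or its reverse complement TTCCTC. The windows are chr15:75155011-75155310, plus strand (the first of 2 annotated Ly6g starts), chr16:96443565-96443864, minus strand, chr1:74153744-74154043, plus strand, and chr17:48232489-48232788, plus strand.
Ly6g promoter: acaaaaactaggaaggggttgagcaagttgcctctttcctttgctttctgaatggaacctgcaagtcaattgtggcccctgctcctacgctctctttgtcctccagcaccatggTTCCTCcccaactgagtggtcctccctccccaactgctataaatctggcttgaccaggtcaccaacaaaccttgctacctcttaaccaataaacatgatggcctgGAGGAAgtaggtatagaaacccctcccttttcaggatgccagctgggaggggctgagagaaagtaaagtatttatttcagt
Itgb2l promoter: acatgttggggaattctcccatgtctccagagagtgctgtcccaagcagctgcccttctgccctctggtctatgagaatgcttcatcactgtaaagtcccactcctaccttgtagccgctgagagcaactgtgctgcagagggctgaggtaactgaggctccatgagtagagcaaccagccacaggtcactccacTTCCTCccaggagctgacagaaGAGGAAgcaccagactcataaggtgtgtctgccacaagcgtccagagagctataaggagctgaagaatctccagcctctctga
Cxcr2 promoter: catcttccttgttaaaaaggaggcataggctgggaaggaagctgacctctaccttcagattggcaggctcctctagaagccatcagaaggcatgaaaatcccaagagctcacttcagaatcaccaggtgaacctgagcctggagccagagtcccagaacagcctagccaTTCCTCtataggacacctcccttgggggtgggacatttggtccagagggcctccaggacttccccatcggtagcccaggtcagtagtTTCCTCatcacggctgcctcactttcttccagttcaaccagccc
Trem1 promoter: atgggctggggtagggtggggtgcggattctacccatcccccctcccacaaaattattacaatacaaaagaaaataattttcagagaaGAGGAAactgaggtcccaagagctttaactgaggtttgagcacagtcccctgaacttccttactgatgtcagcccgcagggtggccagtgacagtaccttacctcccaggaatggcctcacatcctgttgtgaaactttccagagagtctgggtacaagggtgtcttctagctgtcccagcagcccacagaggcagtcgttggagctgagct

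RefSeq windows were at hand for all 9 genes, with 2 for Ly6g. GAGGAA on either strand occurred in a window of 6 of the 9 genes (Ly6g, Itgb2l, Cxcr2, Trem1, Cd177 and Fpr2), and in 28.3% of 32817 promoter windows of the same length. The letters TTGCNNAA, a form of the C/EBP site, occurred on either strand in windows of 2 of the 9 genes, Ly6g and Retnlg, and in 10.8% of all windows. TATAAA occurred in windows of 4 of the 9 genes, Ly6g, Cd177, Fpr1 and Fpr2, and in 13.6% of all windows. GAGGAA was not in the windows of Retnlg, Fpr1 and Il1r2, the last of which had the smallest difference between the libraries. The RefSeq window of Il1r2 (chr1:40085843-40086142) lies inside the gene as the count files place it, because the files start Il1r2 at an earlier exon.

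Levels are given as counts scaled to 1000000 counts on genes of the library (CPM). Library 1 held 23381026 counts and library 2 held 41142609, so 1 count was 0.0428 CPM and 0.0243 CPM. All 10 microglia markers checked, among them Tmem119 and P2ry12, had at least 10 counts in both libraries and summed to 37708 CPM in library 1 and 43066 CPM in library 2, while Sall1, one of them, had 337 and 146 CPM (log2 ratio −1.20, or −0.95 with TMM). The 32 neutrophil genes looked at, the 9 and those of 3 other lists, made up 0.567% of library 1 and 6.60% of library 2. In bulk RNA, fewer cells of a type and less RNA per cell cannot be told apart. Intervals are 95% intervals for counting error only, and they can be too narrow even for that, since amplified reads are not independent molecules. They do not cover the spread between mice, which 2 libraries measure poorly.

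All 9 genes were detected well above the limit of detection in both libraries, and each was higher in library 2. Summed, they reached 447 CPM (0.0447% of the counts) in library 1 and 4166 CPM (0.417%) in library 2. Each of the 9 was at least 2-fold higher in library 2, as were 5.74% of the 13445 genes that had 10 or more counts in each library. The genes were chosen on this difference, and nothing is read from that count. Their median log2 ratio of library 2 over library 1 was 3.34, with a range from 2.04 to 4.20, where all counted genes had a median of −0.26. With TMM normalization the median of all genes was −0.01, the 9 genes were 4.89-fold to 21.9-fold higher in library 2, and 8.78% of genes were higher and 19.7% lower by 2-fold, against 5.74% and 25.9% as CPM. Of the 9 genes, those nearest to the 2-fold limit were Il1r2, Trem1 and Cxcr2, all well past it.

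**Figure D1:**
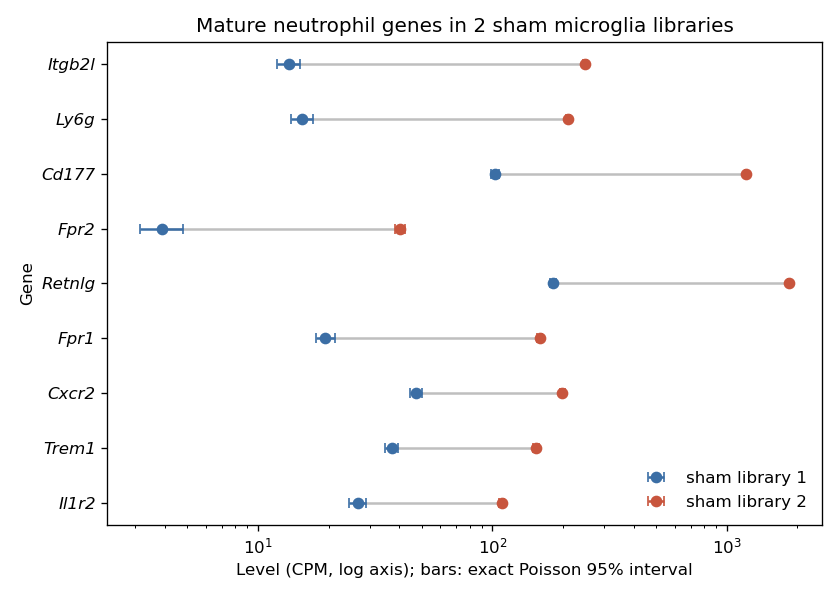
Level of each of the 9 genes in sham library 1 (blue) and sham library 2 (red), in CPM on a log axis, with exact Poisson 95% intervals, ordered by the ratio between the libraries. Every red point lies to the right of its blue point, and the lines are shortest for Il1r2, Trem1 and Cxcr2, near 4.1-fold, and longest for Itgb2l at 18.4-fold.

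Ly6g, whose protein was the antigen used to exclude neutrophils during sorting, was present in both libraries (chromosome 15 of GRCm38, 75155240 to 75159126, plus strand, with 4 exons in its longest transcript). Library 1 had 360 counts of it and library 2 had 8662, which gives 15.4 CPM (13.8 to 17.1) and 211 CPM (206 to 215). Library 2 was thus 13.7-fold higher (12.3 to 15.2), and the mean of 113 CPM had an SD of 138 CPM (n = 2 libraries), larger than the mean itself. Ly6g stood at the 45.1 percentile of counted genes in library 1 and at the 94.9 percentile in library 2. The gate acts on the protein at the cell surface, and the counts on the transcript.

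Cd177 encodes a marker of neutrophil membranes, whose human form can present proteinase 3 at the surface. The gene had the second highest level of the 9 per kilobase of exon in both libraries (chromosome 7, 24743983 to 24760311, minus strand, 17 exons). Library 1 had 2391 counts of it and library 2 had 49698, which gives 102 CPM (98.2 to 106) and 1208 CPM (1197 to 1219). Library 2 was 11.8-fold higher (11.3 to 12.3), with a mean of 655 ± 782 CPM (SD, n = 2). Of its 75-base words, 3.58% also occur in transcripts of BC049730 or Gm4763, neighbouring genes of similar sequence. BC049730 had 1 count in library 1 and 121 in library 2, and Gm4763 had 0 in both. Whether reads were split between these genes and Cd177 was not tested.

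Itgb2l showed the largest difference of the 9 (chromosome 16, 96422288 to 96443619, minus strand, 15 exons). Library 1 had 316 counts of it and library 2 had 10252, which gives 13.5 CPM (12.1 to 15.1) and 249 CPM (244 to 254). That is 18.4-fold (16.5 to 20.7), and only 17 of the 13445 counted genes, Itgb2l included, had a ratio as large. Itgb2, the common beta-2 integrin chain of all leukocytes, had 721 CPM and 1016 CPM, a log2 ratio of 0.49. Its alpha partner Itgam, which encodes the sorted antigen CD11b, went the other way, with 290 CPM (6777 counts) in library 1 and 131 CPM (5386 counts) in library 2. Of the 5 beta-2 integrin genes listed, 4 were counted in both libraries. None of the 4 was at least 2-fold higher in library 2, where 5.74% of all counted genes were. Itgal, Itgam and Itgax were at least 2-fold lower, as were 25.9% of all counted genes. With TMM or DESeq2 scaling, Itgal and Itgam were within 2-fold.

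Retnlg had the highest level per kilobase of exon in each library (chromosome 16, 48872608 to 48874498, plus strand, 4 exons). Library 1 had 4250 counts of it and library 2 had 75589, which gives 182 CPM (176 to 187) and 1837 CPM (1824 to 1850.4). Library 2 was 10.1-fold higher (9.80 to 10.4), with a mean of 1009.5 ± 1171 CPM (SD, n = 2). Retnla, a resistin-like gene of alternatively activated macrophages that lies 28.1 kb from Retnlg, had 231 counts in library 1 and 126 in library 2, a log2 ratio of −1.69 (−2.01 to −1.37). Retn had 4 and 18 counts, and Retnlb 0 and 14. Retnla and Retnlg thus differed between the libraries in opposite directions.

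The formyl peptide receptor genes Fpr1 and Fpr2 lie 3883 bases apart on chromosome 17. Fpr1 (17876471 to 17883940, minus strand, 2 exons) had 452 and 6539 counts in libraries 1 and 2, which gives 19.3 CPM (17.6 to 21.2) and 159 CPM (155 to 163), an 8.22-fold difference (7.47 to 9.06). Fpr2 (17887824 to 17893952, plus strand, 2 exons) had 91 and 1666 counts, or 3.89 CPM (3.13 to 4.78) and 40.5 CPM (38.6 to 42.5), a 10.4-fold difference (8.42 to 12.99). The intervals of these 2 ratios overlapped. Fpr2 had the lowest level of the 9 per kilobase of exon, and its level is uncertain: 20.9% of its 75-base words also occur in transcripts of Fpr3 or Gm5966, and 3.70% of its exon bases are shared with Fpr3, where reads may be left out as ambiguous. Fpr3, Fpr-rs3, Fpr-rs4, Fpr-rs6 and Fpr-rs7, the other receptor genes of the family that were listed, had 0 counts in both libraries, which allows up to 0.128 CPM in library 1 and 0.0729 CPM in library 2. Anxa1, which encodes the FPR2 ligand annexin A1 and is itself abundant in neutrophils, had 135 CPM and 2099 CPM in libraries 1 and 2, a log2 ratio of 3.96.

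Cxcr2, the chemokine receptor gene, differed less (chromosome 1, 74153989 to 74161246, plus strand, 2 exons). Library 1 had 1100 counts of it and library 2 had 8180, which gives 47.0 CPM (44.3 to 49.9) and 199 CPM (195 to 203). The difference was 4.23-fold (3.97 to 4.50), with a mean of 123 ± 107 CPM (SD, n = 2), and 1.86% of counted genes had a ratio as large. Its sister receptor gene Cxcr1 had 10 and 43 counts. Among genes of CXCR2 ligands, Cxcl2 had 529 and 2657 counts (22.6 and 64.6 CPM), Cxcl1 had 18 and 46, Cxcl3 had 2 and 21, Ppbp had 4 in each, and Cxcl5 had none. Per kilobase of exon, Cxcl2 was the highest of the ligand genes, with 10.9 CPM and 31.2 CPM, and its log2 ratio was 1.51 (1.38 to 1.65).

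Il1r2, the decoy receptor gene, was close to Cxcr2 in its ratio (chromosome 1, 40074079 to 40125231, plus strand, 9 exons). Library 1 had 622 counts of it and library 2 had 4497, which gives 26.6 CPM (24.6 to 28.8) and 109 CPM (106 to 113), a 4.11-fold difference (3.78 to 4.48). The mean was 68.0 ± 58.5 CPM (SD, n = 2). Il1r1, the signalling receptor gene that lies 99.8 kb away, had 13 and 14 counts. Per kilobase of exon, Il1r1 had 0.087 CPM and 0.053 CPM, against 13.9 CPM and 57.3 CPM for the decoy receptor gene. Il1rn, the gene of the soluble receptor antagonist, had 12.7 and 53.2 CPM, a log2 ratio of 2.07 (1.89 to 2.24). Il1a had 274 and 322 CPM and the co-receptor gene Il1rap 15.4 and 9.04 CPM. Among the 5 interleukin-1 genes listed, Il1rn alone was at least 2-fold higher in library 2, as were 5.74% of all counted genes. Il1b was just under that limit at a log2 ratio of 0.98. With TMM Il1b was past it, at 1.23, as were 8.78% of all counted genes.

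Trem1 had a ratio whose interval overlapped those of Cxcr2 and Il1r2 (chromosome 17, 48232768 to 48246924, plus strand, 4 exons). Library 1 had 869 counts of it and library 2 had 6311, which gives 37.2 CPM (34.7 to 39.7) and 153 CPM (150 to 157), a 4.13-fold difference (3.84 to 4.44). The mean was 95.3 ± 82.2 CPM (SD, n = 2). Trem3, a receptor gene that begins 852 bases after Trem1 ends, had 320 and 6329 counts, a log2 ratio of 3.49 (3.33 to 3.66) that was 1.45 above that of Trem1. Trem2, the receptor gene of the same cluster that microglia express, had 1391 and 1760 CPM, and the shared adaptor gene Tyrobp 1916 and 2113 CPM. Pglyrp1, which encodes a granule protein reported as a TREM1 ligand, had 45.1 and 410 CPM, a log2 ratio of 3.18. Treml4 was lower in library 2, with 225 and 163 counts.

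**Figure D2:**
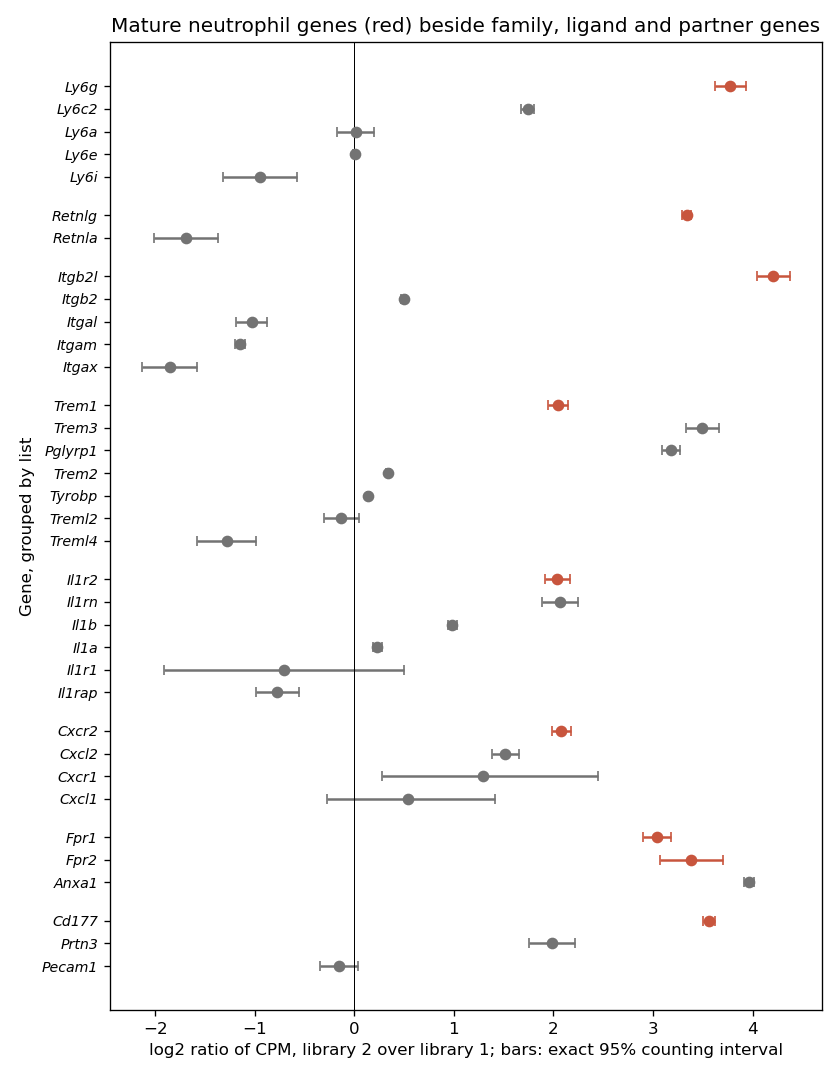
Log2 ratio of CPM, library 2 over library 1, for the 9 genes (red) and all 26 listed family, ligand and partner genes that had 10 or more counts in each library (grey), with exact 95% intervals for counting error. The red points lie between 2.04 and 4.20, while Itgb2, Ly6e, Ly6a, Trem2 and Treml2 lie within 1 of 0 (Treml2 turns from −0.13 to 0.12 with TMM) and Itgax, Retnla, Treml4, Itgam and Itgal lie below −1 (Itgam and Itgal above it with TMM). Anxa1, Trem3, Pglyrp1 and Il1rn are the grey points above 2.

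Over all family, ligand and partner genes listed, 26 of 42 had at least 10 counts in both libraries. Of these, 8 were at least 2-fold higher in library 2, 5 were at least 2-fold lower and 13 were within 2-fold, with a median log2 ratio of 0.19, where 5.74% of all counted genes were higher and 25.9% lower. With TMM these counts were 9, 3 and 14, and the median was 0.44. Of the 4 counted LY6 genes near Ly6g on chromosome 15, 1 was at least 2-fold higher in library 2 and 3 were within 2-fold. Ly6c2, a monocyte gene 43.3 kb from Ly6g, had a log2 ratio of 1.74 (1.67 to 1.81), Ly6e had 0.01 at 2163 and 2172 CPM, Ly6a had 0.01, and Ly6i had −0.95. Pecam1, whose protein binds CD177, had a log2 ratio of −0.16 (−0.34 to 0.03) that turned to 0.09 with TMM. Prtn3, the gene of proteinase 3, which CD177 presents in humans, had a log2 ratio of 1.98 (1.76 to 2.22).

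The ratios of the 9 genes fell into 2 sets that were noticed in the values and not tested. Cxcr2, Trem1 and Il1r2 had ratios from 4.11-fold to 4.23-fold, and their counting intervals overlapped one another. The other 6 had ratios from 8.22-fold (Fpr1) to 18.4-fold (Itgb2l), with a gap of 0.96 on the log2 scale between the sets. Library 1 held less of each of the 9 genes.

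**Figure D3:**
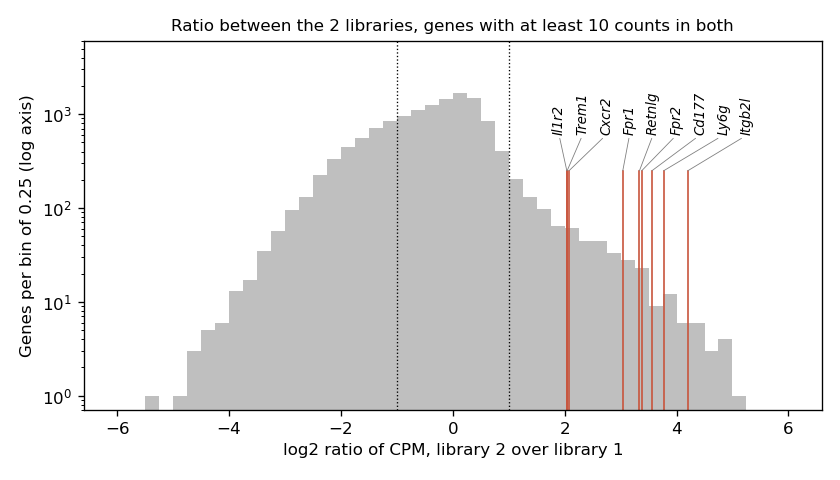
Number of genes per bin of the log2 ratio of CPM, library 2 over library 1, for the 13445 genes that had 10 or more counts in each library, on a log axis, with the 9 genes as red lines and the 2-fold limits dotted. Il1r2, Trem1 and Cxcr2 stand together between 2.04 and 2.08, and the other 6 stand between 3.04 and 4.20, where few genes lie.

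Within a library, the make-up of the counts on the 9 genes does not depend on the library's total. Cxcr2, Trem1 and Il1r2 together held 24.8% of them in library 1 (exact binomial interval 24.0 to 25.6%) and 11.1% in library 2 (10.9 to 11.2%). Cxcr2 alone went from 10.5% to 4.77%, Trem1 from 8.31% to 3.68% and Il1r2 from 5.95% to 2.62%. Itgb2l went from 3.02% to 5.98%, Ly6g from 3.44% to 5.05% and Cd177 from 22.9% to 29.0%. Retnlg took 40.7% and 44.1%, Fpr1 4.32% and 3.82%, and Fpr2 0.871% and 0.972%. Per count of Ly6g, library 1 held 3.06 counts of Cxcr2 and library 2 held 0.944. For Trem1 these values were 2.41 and 0.729, and for Il1r2 1.73 and 0.519, each 3.24 to 3.33 times as many in library 1. Per Ly6g count, Cd177 had 6.64 and 5.74, a difference of 1.16 times. The 9 genes therefore did not keep 1 ratio to each other in the 2 libraries.

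**Figure D4:**
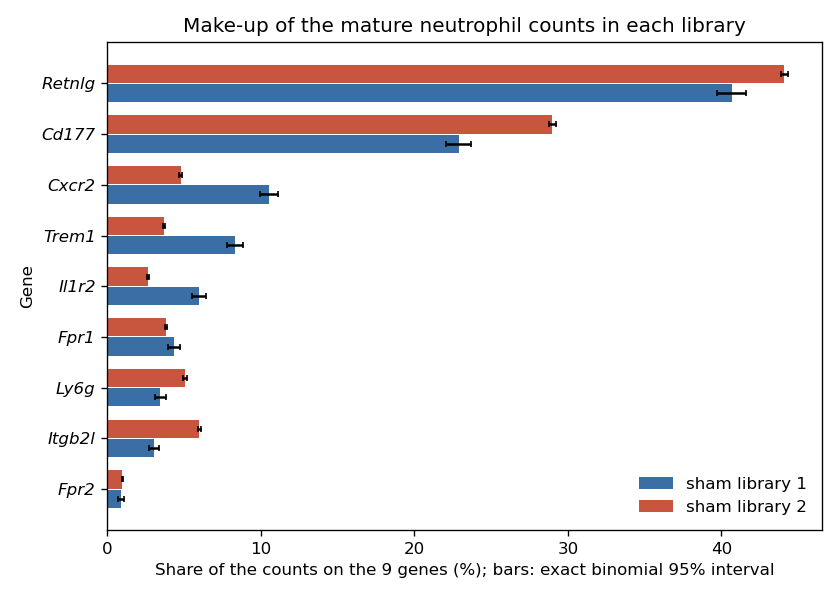
Share of the counts on the 9 genes taken by each gene, in percent, in sham library 1 (blue) and sham library 2 (red), with exact binomial 95% intervals. Retnlg and Cd177 lead in both libraries, while Cxcr2, Trem1 and Il1r2 have the longer blue bars and Itgb2l, Ly6g and Cd177 the longer red bars.

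Levels of different genes were compared per kilobase of merged exons in the GENCODE M21 annotation. Retnlg led in both libraries, with 307 and 3098 CPM per kb, followed by Cd177 with 36.0 and 425 CPM per kb. In library 1 the next 5 genes were close together: Ly6g had 16.3 CPM per kb (14.7 to 18.1), Cxcr2 15.4 (14.5 to 16.4), Fpr1 14.6 (13.3 to 16.0), Il1r2 13.9 (12.9 to 15.1) and Trem1 12.4 (11.6 to 13.3), and the intervals of neighbours in this order overlapped. Itgb2l and Fpr2 were lowest, at 3.13 and 3.00 CPM per kb, again with overlapping intervals. In library 2 the same 5 genes had drawn apart, with Ly6g at 223 CPM per kb, Fpr1 at 120.04, Cxcr2 at 65.2, Il1r2 at 57.3 and Trem1 at 51.2, and Itgb2l had come level with Il1r2 at 57.6. With the length of the longest transcript, Il1r2 rose to 18.7 CPM per kb in library 1, above Ly6g, because its merged exons are longer than any of its transcripts. In library 2 that length put Itgb2l at 88.8 CPM per kb, above Il1r2 at 77.0 and Cxcr2 at 65.3.

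Other neutrophil genes were read from lists written with earlier results known. The 12 other genes of mature neutrophils had a median log2 ratio of 2.53, and 9 of them were at least 2-fold higher in library 2, as were 5.74% of all counted genes. S100a9 (3.41) and Mmp9 (3.37) lay near Retnlg. Csf3r (−0.55), Slfn4 (0.16) and Mxd1 (0.73) were the 3 within 2-fold. The 6 genes listed for later precursors, led by the granule genes Ngp, Camp and Ltf, had a median of 4.12. Their summed level was 1692 CPM and 32343 CPM, a 19.1-fold difference close to that of Itgb2l. Lowest of the 6 was Cebpe, the gene of a transcription factor, at 2.42. The 5 genes listed for the earliest precursors, such as the granule genes Elane and Mpo, had a median of 2.61 and 49.6 and 253 CPM. In library 2 each of these 11 precursor genes was higher by at least 2-fold, beside the same 5.74% of all counted genes.

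**Figure D5:**
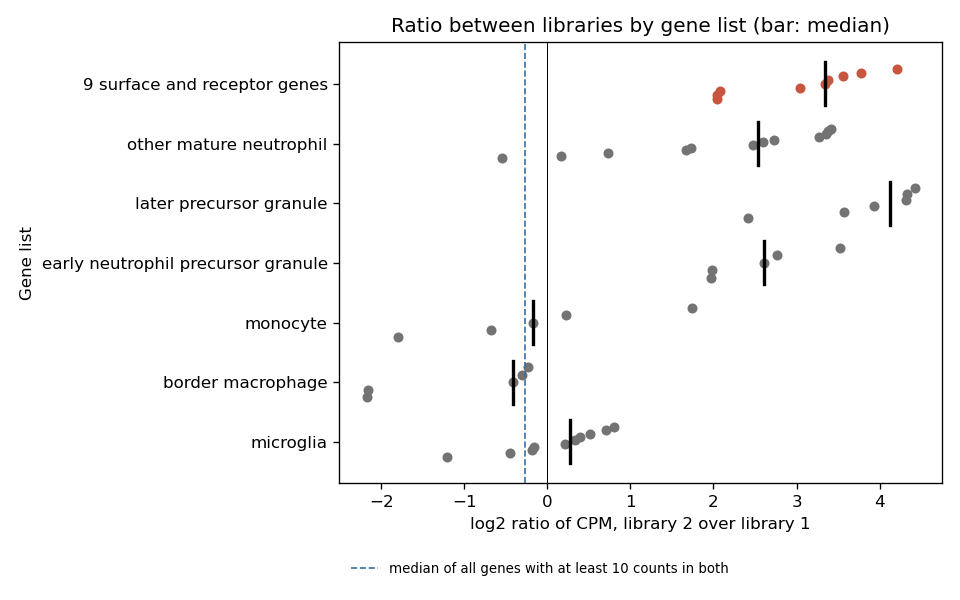
Log2 ratio of CPM, library 2 over library 1, for the 9 genes (red) and for genes of 6 lists that had 10 or more counts in each library (grey), with each list's median as a black bar and the median of all counted genes as a dashed line at −0.26. The neutrophil lists have medians from 2.53 to 4.12, and the monocyte, border macrophage and microglia lists from −0.41 to 0.28 (the monocyte median turns from −0.17 to 0.08 with TMM).

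Genes of some other cells moved with the 9 genes, and their part in the result was not tested. The 4 basophil or mast cell genes had 2 counts in library 1, with Prss34, Mcpt8 and Fcer1a at 0, and 6782 counts in library 2 (165 CPM). The 4 genes of dividing cells had 16.8 and 72.3 CPM, and each of them was higher in library 2 by at least 2-fold, as were 5.74% of all counted genes. The 4 eosinophil genes had 41.2 and 90.0 CPM, with Epx at 0 in library 1. Most of their sum in library 1 was Siglecf, which had 36.3 and 41.8 CPM. Prg2 had 29 and 1518 counts, a log2 ratio of 4.89 that was above those of all 9 genes, and Ccr3 had 1.28. The 4 erythroid genes had 0.214 and 7.58 CPM, with Hbb-bt among those at 0 in library 1. The 5 monocyte genes had 447 and 501 CPM, the 4 B cell genes 52.6 and 57.4 CPM, the 3 dendritic cell genes 13.7 and 10.2 CPM, and the 5 border macrophage genes 437 and 214 CPM. The 4 T or NK cell genes had 3 and 121 counts, of which Cd3d alone held 3 and 109. Cd3g had 0 and 7, Ncr1 had 0 and 5, and Cd3e was at 0 in both libraries. Mitochondrially encoded genes took 0.766% and 0.391% of the counts. The summed monocyte level differed by 1.12-fold, but its genes went both ways, with Ly6c2 3.34-fold higher in library 2 and F13a1 at 225 and 64.7 CPM, a log2 ratio of −1.80.

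The genes nearest to Ly6g were sought over the 2 libraries, as distance in the plane of the log2 CPM of library 1 and of library 2. The nearest was Itgb2l, at a distance of 0.31. Cd24a, a GPI-anchored surface protein gene, followed at 0.33 with 12.6 and 187 CPM, and Enpp2, which encodes autotaxin, at 0.39 with 20.2 and 214 CPM. With 2 libraries such likeness is a description of 2 values per gene.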

How the data were processed

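RNA was measured in 2 libraries of sorted sham microglia, 1 mouse each. The authors checked reads with FastQC, mapped them to GRCm38 with HISAT2 and counted them with HTSeq, and the deposited values are raw counts per Ensembl gene. Versions, annotation release and strand setting are not given in the sources used here. cDNA came from the SMART-Seq HT Kit and was tagmented. Symbols matched 53620 of 53801 identifiers (GENCODE M21).

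Counts were divided by the library total and scaled to 1000000 (CPM). A gene was taken as counted from 10 counts in each library, and a CPM ratio of at least 2 was called a difference. Intervals are 95% exact (Poisson for levels, conditional binomial for ratios, Clopper-Pearson for shares). A count of 0 allows 3 counts. With 1 library on each side no test was run and no p-value is given. The ratio step was tested on simulated counts.

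The genes and all lists were chosen with earlier results of these data known. Named genes are the 9, genes of their families, ligands and partners, neutrophil and other cell lists, and the 3 genes nearest to Ly6g. Values of a few list genes are not reported here. The motifs were chosen after the values were seen. Start coordinates are those of the files plus 1. For 8 of the 9 genes the start and end equal those of GENCODE M21, and for Retnlg they differ, so the authors' annotation is another release. Shared sequence was sought as 75-base words of M21 transcripts. Alternatives were edgeR 4.0.16 TMM, DESeq2 1.42.0 size factors, totals without mitochondrial or neutrophil genes, other filters, another gene length and leaving out each library. Python 3.11.15, numpy 2.4.6, scipy 1.17.1, pandas 2.3.3, matplotlib 3.10.9 and R 4.3.3 were used.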

Additional observations from a re-analysis of the deposited data

How the results depend on the processing

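No paired analysis was possible because both libraries belong to 1 group. All 9 genes stayed at least 2-fold higher in library 2 under each of the 4 other scalings, and all 9 stayed counted under each of the 5 other filters and omissions. The median log2 ratio of the 9 genes was 3.34, and it was 3.59 with TMM library sizes, 3.61 with DESeq2 size factors, 3.43 with totals without neutrophil genes and 3.33 without mitochondrially encoded genes. Each scaling divided a library by 1 value for all genes, so the gap between Cxcr2, Trem1 or Il1r2 and the other 6 cannot change with it. The median of all counted genes was −0.26 as CPM and −0.01 after TMM. The share of genes at least 2-fold higher was 5.74%, rising to 8.78% under TMM and 9.28% under DESeq2 size factors, and of the genes past 2-fold 18.1%, 30.8% and 32.8% were higher. Tmem119, Fcrls, Cbr2 and Plac8 had ratios below 0 as CPM and above 0 under both. Other filters on low counts gave 4.40 to 7.68%. None of the mean levels moved by more than 1 SD in any of 54 recomputed means, but the mean of 2 libraries cannot move further than that when 1 is omitted, and each mean of the 9 genes is set by library 2. With the longest transcript as gene length, 5 of the 9 genes in library 1 and 6 in library 2 kept their place in the order per kilobase. Depth limits Fpr2 most, with 91 counts in library 1.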
